A study of Mus musculus with 7 samples.

Results

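The TNF superfamily comprises secreted or membrane-bound ligands related to tumour necrosis factor and the cysteine-rich receptors that bind them. Its members were taken from the gene count table by symbol, as the protein-coding genes named Tnf, Tnfsf or Tnfrsf with a number, or Lta, Ltb, Ltbr, Fas, Fasl, Cd27, Cd40, Cd40lg, Cd70, Eda, Edar or Eda2r. This gave 44 genes of the 55487 in the table, 18 ligands and 26 receptors, and all 44 passed the filter on low counts. RNA was sequenced from inguinal white adipose tissue, the fat pad under the skin of the groin, of NOD/ShiLtJ mice, an inbred strain that develops autoimmune diabetes. The imBAT mice (4 libraries) received the fraction above 100 kDa of buffer conditioned by brown adipocytes, at 1.5 mg/kg body weight under the skin for 7 days, and the sham mice (3 libraries) received KRBH buffer. The series gives a blood glucose of 190 to 230 mg/dL for the injected mice and tissue collection 2 to 8 weeks after injection, without the week of each library. Neither the age of the mice nor the number of mice behind the libraries is stated, so p-values here cover only differences among the sequenced libraries, some of which may be technical.

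Most ligands of this family assemble as trimers on the cell surface, from which proteases can release some of them, and bring receptors together. Receptors then recruit TRAF adaptors, which lead to NF-kB, or, where they carry a death domain, can start cell death. In lymphoid tissue the family governs the organization of lymph nodes (lymphotoxins), the survival of B cells (BAFF and APRIL) and the costimulation of T cells. In fat, TNF is known as an inhibitor of adipocyte differentiation and of insulin action.

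Libraries held 43360208 to 63650016 counts in imBAT and 41025786 to 44983250 in sham. Levels are given as CPM, gene counts scaled to a common library total after TMM normalization. White adipocyte markers were present in every library, and all 12 rose in imBAT, with a summed level of 13779 to 31774 CPM in imBAT and 2345 to 4857 CPM in sham. All 13 T cell markers and all 10 B cell markers fell, and their sums were 224 to 732 and 315 to 836 CPM in imBAT, against 1377 to 1700.4 and 1979 to 2353 CPM in sham. Of 7 dendritic cell markers 6 fell (sums of 102 to 188 CPM in imBAT and 306 to 376 CPM in sham), as did 4 of 5 tested markers of lymph node stroma and venules (203 to 494 CPM in imBAT and 751 to 1153 CPM in sham). Of 10 macrophage markers 8 rose, with sums of 568 to 1829 CPM in imBAT and 479 to 521 CPM in sham, and 6 of 7 progenitor and fibroblast markers rose, with sums of 3282 to 5353 CPM in imBAT and 706 to 909.9 CPM in sham. Endothelial markers rose in 7 of 8 (745 to 1035 CPM in imBAT, 400 to 543 CPM in sham), as did all 7 mammary epithelial markers (954 to 1848 CPM in imBAT, 132 to 471 CPM in sham). Of 6 skeletal muscle markers 4 rose (9.89 to 88.8 CPM in imBAT, 2.34 to 5.71 CPM in sham). NK cell markers were mixed (3 of 7 fell and 1 rose), as were plasma cell and keratinocyte markers (1 rose and 1 fell in each list). No list had a marker at 0 in all libraries. The first principal component of all genes separated the groups with 65.7% of the variance. The imBAT replicate 3 library stood apart within its group with the lowest B and T cell sums, and imBAT replicate 2 with a macrophage sum of 568 CPM, where its 3 group mates had 1381 to 1829 CPM. Most of these marker lists differed between the same groups that are compared below, and their part in the results was not tested. In bulk tissue, fewer cells of a type and less RNA per cell cannot be told apart.

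**Figure D1:**
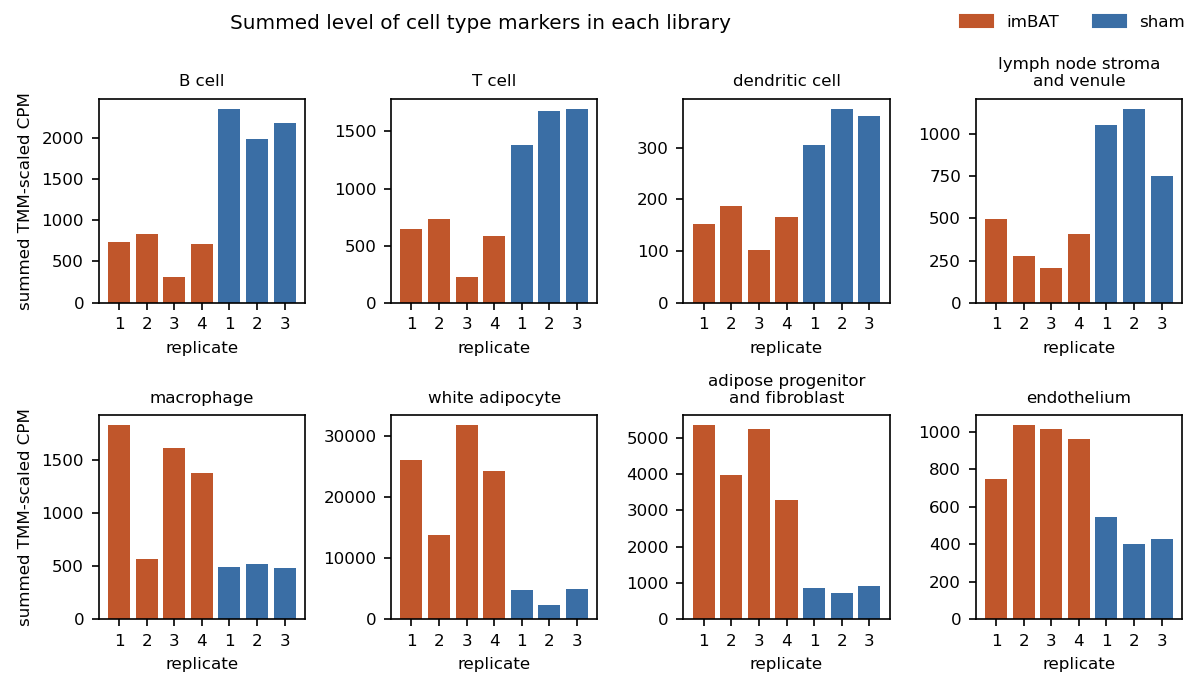
Summed TMM-scaled CPM (vertical axis) of 8 lists of cell type markers in each library, with imBAT replicates 1 to 4 left of sham replicates 1 to 3. The B cell, T cell, dendritic cell and lymph node sums were lower in every imBAT library than in every sham library, and the other 4 sums were higher.

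Members fell more often than they rose. Of the 44, 24 fell in imBAT and 8 rose, while 12 were not called (edgeR quasi-likelihood test, adjusted p under 0.05 over all 26393 genes tested). The 24 that fell were 54.5% of members, where 19.3% of all tested genes were lower, and the 8 that rose were 18.2%, where 24.3% of all tested genes were higher. The median log2 fold change (imBAT over sham) was -0.50 over the members, -0.89 over the ligands and -0.32 over the receptors, beside -0.01 over all tested genes. Of the 18 ligands 11 fell and 3 rose, and of the 26 receptors 13 fell and 5 rose. The groups did not overlap for 25 members that were lower and 10 that were higher in imBAT, where 25.2% and 26.8% of all tested genes did so (52% in either direction). Without imBAT replicate 3, the imBAT library with the lowest T and B cell sums, 23 members fell and 8 rose. With upper-quartile scaling, which moved the median of all genes to -0.25 and the share of called genes that were higher to 36.6%, where TMM gave 55.8%, 25 members fell and 8 rose. Replicate 3 was the lowest imBAT library for 19 of the 24 members that fell, and imBAT replicate 2 was the highest for 11 of them.

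**Figure D2:**
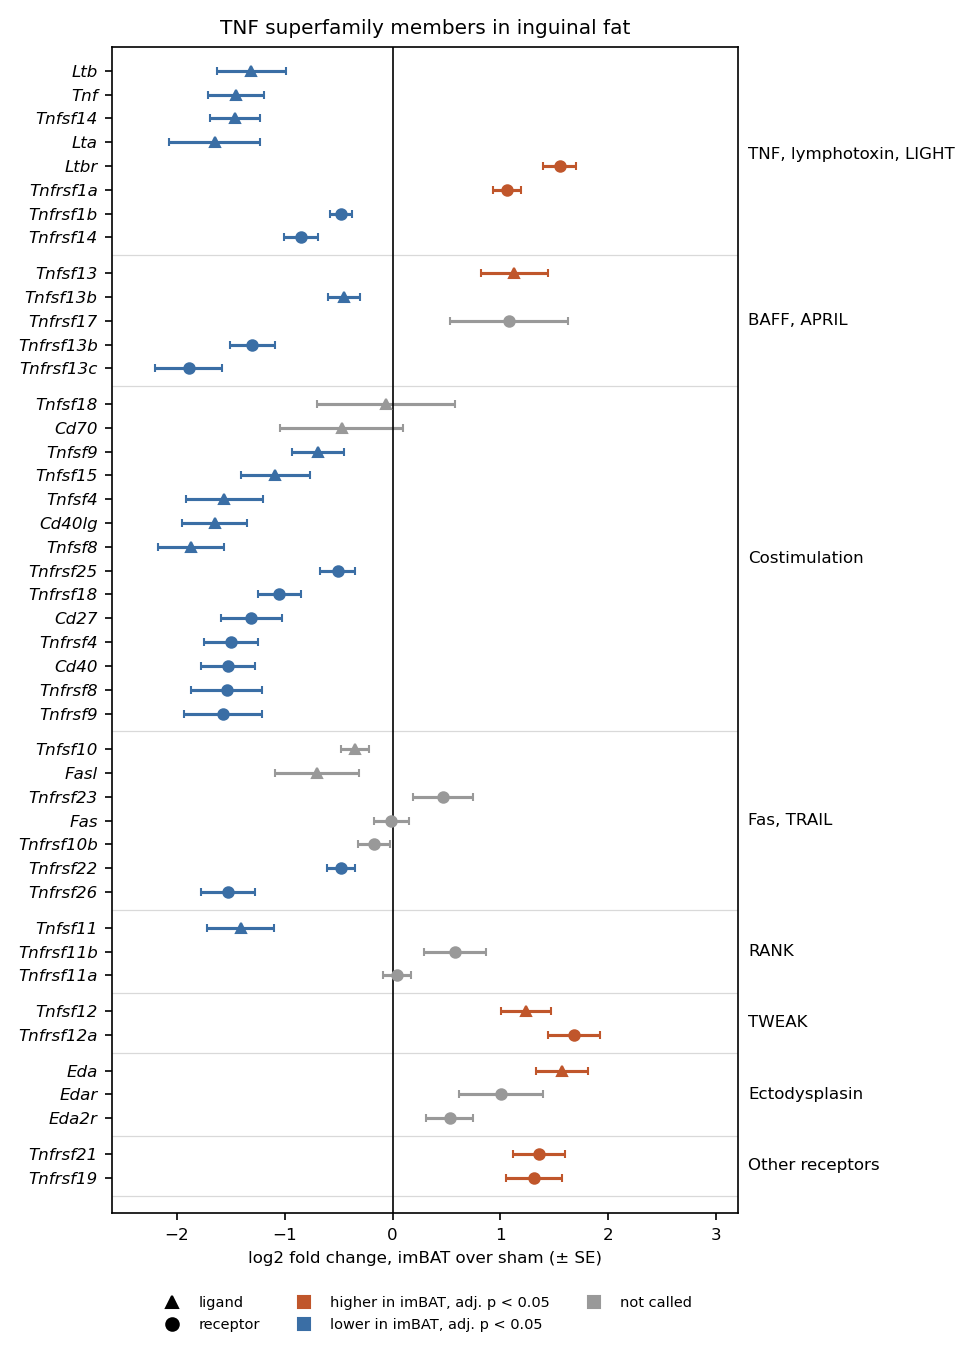
The log2 fold change of imBAT over sham (horizontal axis, bars are the SE) of all 44 members, grouped by ligand and receptor system, with triangles for ligands and circles for receptors. Costimulatory members lie left of 0, and the TWEAK, ectodysplasin and other receptor groups lie right of it.

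Of the 8 genes of the TNF and lymphotoxin group 6 fell (75%, where 19.3% of all tested genes were lower). The other 2 rose (25%, where 24.3% of all tested genes were higher). All 4 ligands of this group fell. Tnf, the founding cytokine of the family, made mainly by macrophages and lymphocytes, stood at 8.44, 4.99, 3.62 and 5.97 CPM in imBAT replicates 1 to 4, against 14.3, 15.1 and 17.9 CPM in sham replicates 1 to 3. Every imBAT library was below every sham library, and Tnf was 2.74-fold lower (log2 fold change -1.45 ± 0.26 SE, adjusted p = 0.00367). Lta, the secreted lymphotoxin alpha of lymphocytes, had 6.01, 7.69, 1.55 and 5.25 CPM in imBAT, against 15.3, 16.2 and 17.0 CPM in sham. The imBAT libraries were spread more widely than the sham libraries, with replicate 3 at the bottom, and the change was -1.65 ± 0.42 (adjusted p = 0.0139). Ltb, lymphotoxin beta, which anchors lymphotoxin alpha at the surface of lymphocytes, was the ligand with the highest level per exon length in both groups. It had 85.5, 96.6, 32.6 and 68.5 CPM in imBAT and 162, 156 and 207 CPM in sham, a change of -1.31 ± 0.32 (adjusted p = 0.0113). The groups did not overlap, but with no filter on low counts the call was lost (adjusted p = 0.0538). Tnfsf14, or LIGHT, a ligand of activated T cells, averaged 1.84 ± 0.177 CPM in imBAT (SD, n = 4) and 5.05 ± 1.41 CPM in sham (SD, n = 3), a fall of 2.75-fold.

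The 250 bases before the start sites in RefSeq (GRCm38.p6) were searched on both strands for a common form of the binding site of NF-kB, the factor through which these receptors act, read as GGG, any 2 bases and TTTCC. It was found for 3 of the 34 members with a window in the table, 8.82%, where 1.65% of all 27025 genes with a window hold it. These were Ltb, Tnfrsf9 and Tnfrsf25. All 3 fell, where 18 of the 34 members with a window fell. The call of Tnfrsf25 was lost in 3 fits that left out a library, and that of Ltb with no filter on low counts. Tnfrsf9 and Tnfrsf25 each have another window that holds no match. To show where the match lies, the windows of Ltb (chr17:35194257-35194506, plus strand) and of a start site of Tnfrsf9 (chr4:150927749-150927998, plus strand) are written 5′ to 3′ with the match in capitals, 87 and 43 bases before the start site, that of Ltb on the opposite strand.
Ltb: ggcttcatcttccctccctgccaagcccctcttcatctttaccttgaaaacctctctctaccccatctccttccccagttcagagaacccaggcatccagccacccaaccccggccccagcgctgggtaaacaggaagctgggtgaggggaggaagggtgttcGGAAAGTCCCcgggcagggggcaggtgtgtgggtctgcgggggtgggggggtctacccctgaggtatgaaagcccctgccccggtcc
Tnfrsf9: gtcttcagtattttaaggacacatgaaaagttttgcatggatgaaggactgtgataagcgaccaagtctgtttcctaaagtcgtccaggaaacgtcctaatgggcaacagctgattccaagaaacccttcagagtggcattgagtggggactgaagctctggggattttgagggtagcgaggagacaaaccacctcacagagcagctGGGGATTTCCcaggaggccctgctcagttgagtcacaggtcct
The same search for TATAAA found 7 members, 20.6%, where 14.3% of all genes hold it. Of these, Tnf, Lta and Tnfsf11 fell, and Eda2r, Tnfrsf17, Tnfrsf23 and Tnfsf18 were not called. A PPAR-type direct repeat, AGGTCA written again after any 1 base, was found for 0 members, where 0.0407% of all genes hold it.

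The receptors of these ligands split into a pair that rose and a pair that fell. Tnfrsf1a, the type I TNF receptor, a death domain receptor found on most cell types, had 159.8, 159, 179 and 139 CPM in imBAT, against 88.8, 70.7 and 70.1 CPM in sham. It was 2.08-fold higher (1.06 ± 0.13, adjusted p = 0.0011), with no overlap between groups. Ltbr, the lymphotoxin beta receptor of stromal and myeloid cells, had 74.4, 67.6, 90.4 and 61.2 CPM in imBAT and 28.0, 22.7 and 24.4 CPM in sham. Its lowest imBAT library was above its highest sham library, and it rose 2.93-fold (1.55 ± 0.15, adjusted p = 0.000816). Tnfrsf1b, the type II TNF receptor, enriched on immune cells, had 103, 90.1, 90.2 and 104 CPM in imBAT and 133, 146 and 126 CPM in sham. The fall was narrow but even across libraries, 1.40-fold (-0.48 ± 0.10, adjusted p = 0.0062). Tnfrsf14, or HVEM, the receptor of LIGHT on lymphocytes, fell 1.80-fold and averaged 49.2 ± 9.38 CPM in imBAT and 88.5 ± 6.96 CPM in sham. All 4 ligands of this group were thus lower, while Tnfrsf1a and Ltbr were higher. In the same libraries the macrophage, progenitor and endothelial marker sums were higher and the T and B cell sums lower.

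**Figure D3:**
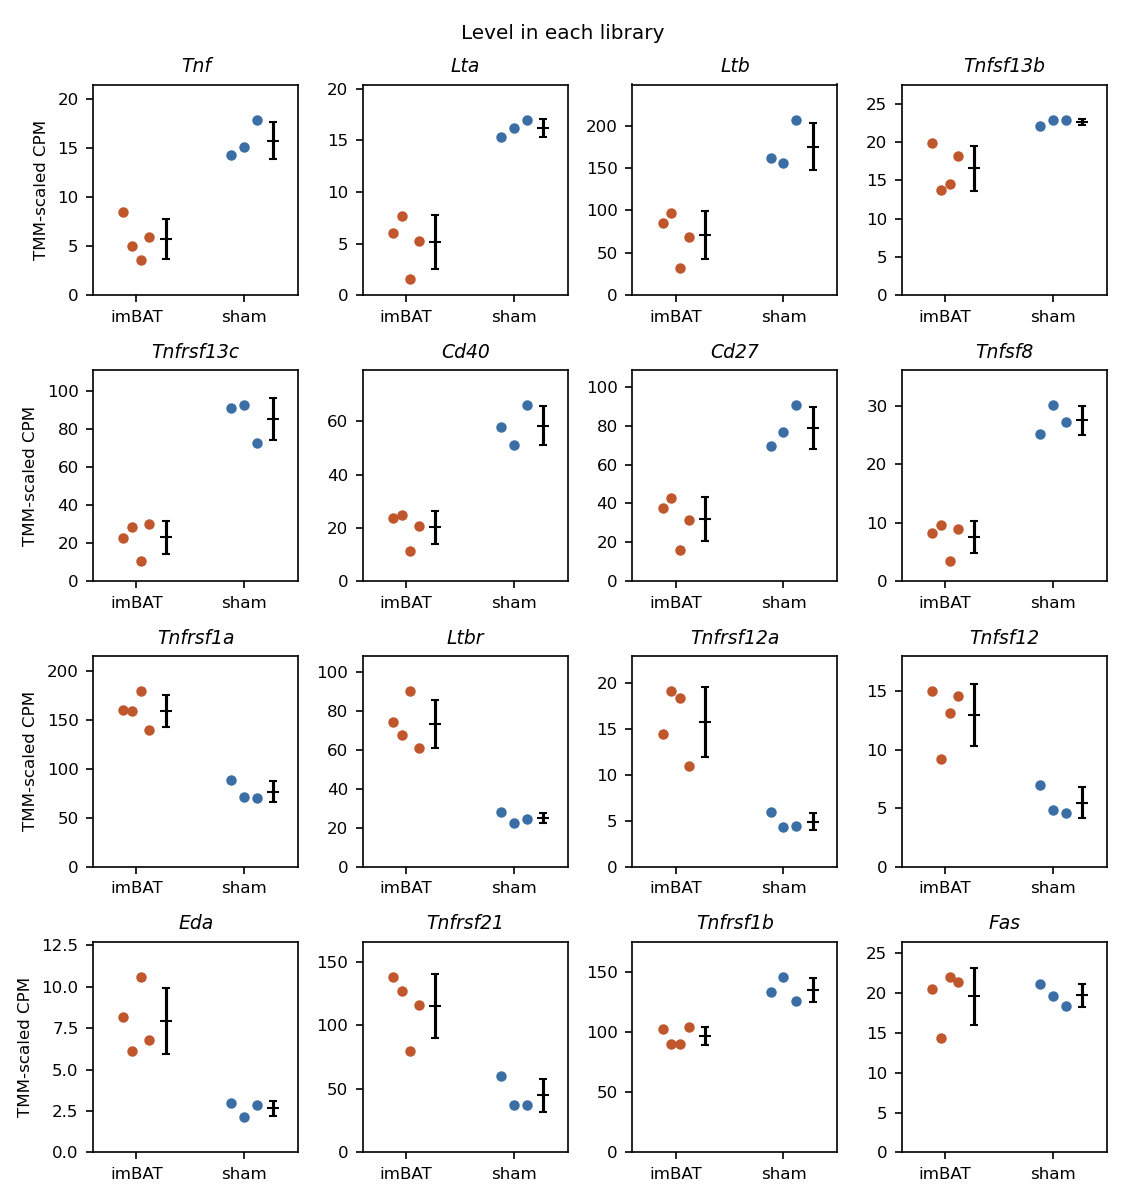
TMM-scaled CPM (vertical axes from 0) of 16 members in each library, imBAT left of sham, with the mean and SD in black beside the points. The groups do not overlap in any panel but that of Fas.

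Several members lie beside one another in the genome (GRCm38, GENCODE M21). Ltb (chromosome 17, 35194439 to 35196320), Tnf (35199381 to 35202007) and Lta (35203165 to 35205351) sit within the MHC, 3060 and 1157 bases apart, and all 3 fell. On chromosome 4, Tnfrsf4 (156013843 to 156016612) and Tnfrsf18 (156026164 to 156028895) are 9551 bases apart and both fell. On chromosome 6 the direction changed between neighbours: Cd27 (125232622 to 125237010) fell, while Ltbr (125306571 to 125313885), 69560 bases away, and Tnfrsf1a (125349362 to 125362484), another 35476 bases on, both rose. The 250 bases before the start sites of Cd27 and Ltbr are shown for that contrast, from RefSeq on GRCm38.p6, both on the minus strand and written 5′ to 3′ along the gene, with each CG pair in capitals. The Cd27 window (chr6:125237028-125237277) holds 5 CG pairs and the Ltbr window (chr6:125313886-125314135) 18. The window of Tnfrsf1a, which also rose, is not shown and holds 9, with an observed to expected ratio of 0.48. A link between CG pairs and direction was not tested.
Cd27: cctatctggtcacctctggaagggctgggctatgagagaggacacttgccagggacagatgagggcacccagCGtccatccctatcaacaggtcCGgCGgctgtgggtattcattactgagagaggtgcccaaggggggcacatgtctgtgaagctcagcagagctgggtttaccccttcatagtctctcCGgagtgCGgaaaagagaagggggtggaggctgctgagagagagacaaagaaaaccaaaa
Ltbr: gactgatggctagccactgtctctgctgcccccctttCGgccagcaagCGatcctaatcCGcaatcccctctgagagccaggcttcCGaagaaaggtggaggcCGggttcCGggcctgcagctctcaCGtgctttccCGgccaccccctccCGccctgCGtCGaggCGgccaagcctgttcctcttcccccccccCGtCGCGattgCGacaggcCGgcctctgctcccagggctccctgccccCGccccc
The median ratio of observed to expected CG pairs was 0.53 over 7 members that rose and 0.39 over 18 that fell, with ranges of 0.21 to 0.77 and 0.11 to 0.54 that overlap, beside 0.37 over all 32851 windows in the table.

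Of the 5 genes of the B cell survival group 3 fell (60%, where 19.3% of all tested genes were lower). Of the others, 1 rose (20%, where 24.3% of all tested genes were higher) and 1 was not called. Tnfrsf13c, the BAFF receptor of mature B cells, had the largest fall of all 44 members. It stood at 22.5, 28.4, 10.7 and 30.1 CPM in imBAT, against 90.7, 92.3 and 72.7 CPM in sham. No imBAT library came near the sham range, and the fall was 3.71-fold (-1.89 ± 0.31, adjusted p = 0.00258). Tnfrsf13b, or TACI, a receptor of BAFF and APRIL on B cells, averaged 20.5 ± 5.06 CPM in imBAT and 50.5 ± 6.78 CPM in sham and fell 2.47-fold. Tnfrsf17, or BCMA, the plasma cell receptor of the group, ran the other way at low counts, with 0.977, 0.654, 0.516 and 0.527 CPM in imBAT and 0.442, 0.0803 and 0.427 CPM in sham. It was not called (log2 fold change 1.08 ± 0.55, adjusted p = 0.137), and 1 of 6 plasma cell markers rose and 1 fell in the same comparison. Tnfsf13b, the ligand BAFF, made by myeloid and stromal cells, had 19.8, 13.7, 14.5 and 18.2 CPM in imBAT and 22.1, 22.9 and 22.8 CPM in sham. It fell by 0.45 ± 0.15 on the log2 scale (adjusted p = 0.0378), a call that was lost without imBAT replicate 2 or any single sham replicate (adjusted p up to 0.111). Tnfsf13, the ligand APRIL, rose 2.18-fold with 3.91, 1.75, 2.75 and 2.28 CPM in imBAT and 1.48, 1.08 and 1.11 CPM in sham (adjusted p = 0.019), and lost its call when sham replicate 2 or 3 was left out (adjusted p up to 0.0731). Its exons overlap those of the antisense gene Tnfsf13os and of Tnfsfm13, a read-through gene that joins it to Tnfsf12. Tnfsf13os also rose, 1.73-fold (adjusted p = 0.0371), and Tnfsfm13 rose 2.14-fold (adjusted p = 0.00956). Since the strand setting of the counting is not given in the sources used here, reads of these genes cannot be told apart.

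Costimulation genes encode the ligands and receptors through which T cells, B cells and antigen-presenting cells exchange activating signals. Of 14 such genes 12 fell (85.7%, where 19.3% of all tested genes were lower) and none rose (where 24.3% were higher). The pair that was not called lay at or below 0.443 CPM in every library. Among the ligands, Tnfsf8, the CD30 ligand, had 8.28, 9.53, 3.39 and 8.85 CPM in imBAT, against 25.2, 30.1 and 27.3 CPM in sham. The gap between groups was wider than the spread within either, a fall of 3.66-fold (-1.87 ± 0.31, adjusted p = 0.00268). Cd40lg, the signal by which helper T cells activate B cells, had 4.26, 4.69, 1.94 and 2.90 CPM in imBAT and 9.46, 9.48 and 13.6 CPM in sham, with no overlap, and fell 3.13-fold (adjusted p = 0.00393). Tnfsf4, the OX40 ligand, fell 2.95-fold at a low level, 0.179 ± 0.0222 CPM in imBAT and 0.529 ± 0.0812 CPM in sham. Tnfsf15, a ligand of the death domain receptor Tnfrsf25, averaged 1.37 ± 0.539 CPM in imBAT and 2.94 ± 0.316 CPM in sham, and its fall of 2.13-fold lost its call when imBAT replicate 1 or any single sham replicate was left out (adjusted p up to 0.0858). Tnfsf9, the ligand of Tnfrsf9, averaged 1.55 ± 0.257 CPM in imBAT and 2.52 ± 0.597 CPM in sham. Its fall of 1.62-fold (adjusted p = 0.0475) was lost in each fit that left out a library (adjusted p up to 0.178), and its exons overlap those of the opposite-strand gene Gm11110, which fell 2.07-fold. Cd70, the ligand of CD27, had 0.164 ± 0.101 CPM in imBAT and 0.225 ± 0.0260 CPM in sham (adjusted p = 0.519). Tnfsf18, the ligand of GITR, had 0.249 ± 0.173 CPM in imBAT and 0.252 ± 0.0465 CPM in sham (adjusted p = 0.949).

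All 7 costimulatory receptors fell. Cd40, the receptor of B cells and antigen-presenting cells, had 23.8, 24.8, 11.1 and 20.7 CPM in imBAT, against 57.8, 51.2 and 66.0 CPM in sham. The groups were well separated, and the fall was 2.90-fold (-1.53 ± 0.25, adjusted p = 0.00261). Cd27, a receptor of T cells and memory B cells, had 37.6, 42.7, 16.2 and 31.4 CPM in imBAT and 69.5, 77.1 and 90.7 CPM in sham, with no overlap, and fell 2.47-fold (-1.31 ± 0.28, adjusted p = 0.00727). Tnfrsf9, a receptor of activated T cells, had 3.45, 3.88, 1.21 and 4.27 CPM in imBAT and 8.62, 9.86 and 10.1 CPM in sham, and was 2.97-fold lower. Tnfrsf8, or CD30, of activated lymphocytes, had 0.885, 1.54, 0.615 and 1.49 CPM in imBAT and 3.51, 3.66 and 2.78 CPM in sham, and was 2.92-fold lower. In both, every imBAT library was below every sham library. Tnfrsf4 (OX40) and Tnfrsf18 (GITR), both abundant on regulatory T cells, fell 2.84-fold and 2.07-fold, to 9.30 ± 2.54 and 10.1 ± 2.43 CPM in imBAT, against 26.4 ± 5.71 and 20.9 ± 2.86 CPM in sham. Tnfrsf25, a death domain receptor of T cells, fell 1.43-fold, averaging 12.9 ± 1.87 CPM in imBAT and 18.5 ± 2.69 CPM in sham, and this call needed imBAT replicate 1 and sham replicates 2 and 3, being lost when any of them was left out (adjusted p up to 0.117). The T and B cell marker medians, -1.51 and -1.77 on the log2 scale, stood beside a costimulation median of -1.40.

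The death ligands and their main receptors were not called. Fas, the death receptor of many cell types, had 20.5, 14.3, 22.0 and 21.4 CPM in imBAT and 21.1, 19.6 and 18.3 CPM in sham, with the groups fully mixed (log2 fold change -0.01 ± 0.16, adjusted p = 0.962). Fasl, the Fas ligand of cytotoxic lymphocytes, had 0.332, 1.08, 0.861 and 1.15 CPM in imBAT and 1.57, 1.29 and 1.30 CPM in sham. Its groups did not overlap, but the difference of -0.70 ± 0.39 was not called (adjusted p = 0.179). Tnfsf10, the ligand TRAIL, had 27.2, 21.0, 22.0 and 24.3 CPM in imBAT and 26.4, 30.6 and 33.7 CPM in sham. It overlapped between groups in imBAT replicate 1, and at -0.35 ± 0.13 was not called (adjusted p = 0.0547). It was called lower with upper-quartile scaling (adjusted p = 0.00653), limma voom (0.0258), a filter of 1 CPM in 3 libraries (0.0398), without imBAT replicate 1 (0.039) and without sham replicate 1 (0.0409). Tnfrsf10b, the TRAIL death receptor of the mouse, averaged 10.7 ± 1.47 CPM in imBAT and 12.1 ± 0.659 CPM in sham (adjusted p = 0.378). A cluster of related mouse receptor genes on chromosome 7 behaved unevenly. Tnfrsf26 fell 2.89-fold (5.40 ± 1.44 CPM in imBAT, 15.6 ± 3.02 CPM in sham, adjusted p = 0.00245), with 6.06, 5.82, 3.27 and 6.45 CPM in the imBAT libraries and 13.0, 18.9 and 15.0 CPM in the sham libraries. The decoy receptor Tnfrsf22 fell 1.39-fold (11.6 ± 1.13 CPM in imBAT, 16.2 ± 0.888 CPM in sham), a call that was lost without sham replicate 2 (adjusted p = 0.0717). Tnfrsf23, the other decoy, had 3.60 ± 1.24 CPM in imBAT and 2.60 ± 0.379 CPM in sham and was not called (adjusted p = 0.207). These are tandem relatives, and reads could be split between them. Tnfrsf23 and Tnfrsf26 also share exon bases with the opposite-strand gene E230032D23Rik, which fell 2.09-fold.

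In the RANK group, which controls osteoclasts in bone and also lymph node formation, only the ligand was called. Tnfsf11, or RANKL, had 3.56, 3.43, 1.40 and 3.40 CPM in imBAT, against 6.92, 8.88 and 7.76 CPM in sham, and fell 2.65-fold (-1.41 ± 0.31, adjusted p = 0.00721). Tnfrsf11a, the receptor RANK, had 39.4, 30.9, 30.1 and 37.0 CPM in imBAT and 37.5, 30.5 and 32.1 CPM in sham. These groups overlapped (0.04 ± 0.13, adjusted p = 0.806), and the sign turned with upper-quartile scaling. Tnfrsf11b, the soluble decoy osteoprotegerin, had 1.16, 0.981, 0.935 and 1.39 CPM in imBAT and 0.707, 0.562 and 0.971 CPM in sham, and was not called (0.58 ± 0.29, adjusted p = 0.14).

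The TWEAK pair rose. Tnfrsf12a, or Fn14, a small receptor induced by growth factors and tissue injury, had the largest rise of all members. It had 14.4, 19.1, 18.4 and 10.9 CPM in imBAT, against 5.97, 4.34 and 4.39 CPM in sham. The lowest imBAT library was above the highest sham library, and the rise was 3.21-fold (1.68 ± 0.24, adjusted p = 0.00164). Tnfsf12, its ligand TWEAK, had 15.0, 9.22, 13.1 and 14.6 CPM in imBAT and 6.98, 4.84 and 4.62 CPM in sham, with no overlap, and rose 2.37-fold (1.24 ± 0.23, adjusted p = 0.00398). Tnfsf12 shares exons with the read-through gene Tnfsfm13, so part of its reads may be counted there or left out.

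The ectodysplasin group is known for the development of hair, teeth and skin glands. Of its 3 genes 1 rose (33.3%, where 24.3% of all tested genes were higher) and the others were not called. Eda, the ligand, had 8.20, 6.15, 10.6 and 6.78 CPM in imBAT, against 2.96, 2.15 and 2.89 CPM in sham. All imBAT libraries were above all sham libraries, and Eda rose 2.97-fold (1.57 ± 0.24, adjusted p = 0.00218). Edar, its death domain receptor of epithelia, averaged 1.22 ± 0.463 CPM in imBAT and 0.610 ± 0.243 CPM in sham (1.01 ± 0.39, adjusted p = 0.065), and was called without sham replicate 1 (adjusted p = 0.0379) and with limma voom (adjusted p = 0.0233). Eda2r, the receptor of a separate isoform of the ligand, had 2.43, 3.24, 2.90 and 2.85 CPM in imBAT and 2.25, 1.53 and 2.17 CPM in sham. Its groups did not overlap, and it was not called (0.53 ± 0.22, adjusted p = 0.0834).

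A further pair of receptors rose. Tnfrsf21, or DR6, a death domain receptor best studied in neurons and T cells, had 138, 127, 79.5 and 116 CPM in imBAT, against 59.9, 37.4 and 37.2 CPM in sham, without overlap. It rose 2.57-fold (1.36 ± 0.24, adjusted p = 0.00327) and was among the members with the highest level per exon length in imBAT. Tnfrsf19, or TROY, a receptor of epithelial and neural progenitors, had 4.57, 3.57, 2.93 and 2.64 CPM in imBAT and 1.44, 1.14 and 1.57 CPM in sham, and rose 2.48-fold (adjusted p = 0.00509). Of the 6 death domain receptors, 2 rose (Tnfrsf1a and Tnfrsf21), 1 fell (Tnfrsf25, whose call was lost in 3 of the left-out fits) and 3 were not called (Fas, Tnfrsf10b and Edar). These shares, 33.3% higher and 16.7% lower, lay near those of all tested genes, 24.3% and 19.3%.

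Levels of different genes were compared per kb of exon. In imBAT the order began with Tnfrsf1a (61.3 CPM per kb), Ltb (46.7), Tnfrsf14 (34.2), Ltbr (31.2) and Tnfrsf21 (28.0). In sham it began with Ltb (116 CPM per kb), Tnfrsf14 (61.5), Tnfrsf13c (41.6), Tnfrsf1b (35.4) and Cd27 (34.0), with Tnfrsf1a sixth at 29.5 CPM per kb. By group means the first place thus went to a widely expressed receptor in imBAT and to a lymphocyte ligand in sham, though the imBAT SD of Ltb, 18.5 CPM per kb, was larger than its distance to Tnfrsf1a. Neighbours such as Tnfrsf1b and Cd27 in sham, with SDs of 2.76 and 4.61 CPM per kb, did not differ beyond their spread. Tnfrsf12a held rank 11 of 44 in imBAT and 28 in sham, and Tnfrsf13c rank 8 in imBAT and 3 in sham. The lowest levels were those of Tnfsf4 in imBAT (0.0972 CPM per kb) and Tnfsf18 in sham (0.122 CPM per kb).

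**Figure D4:**
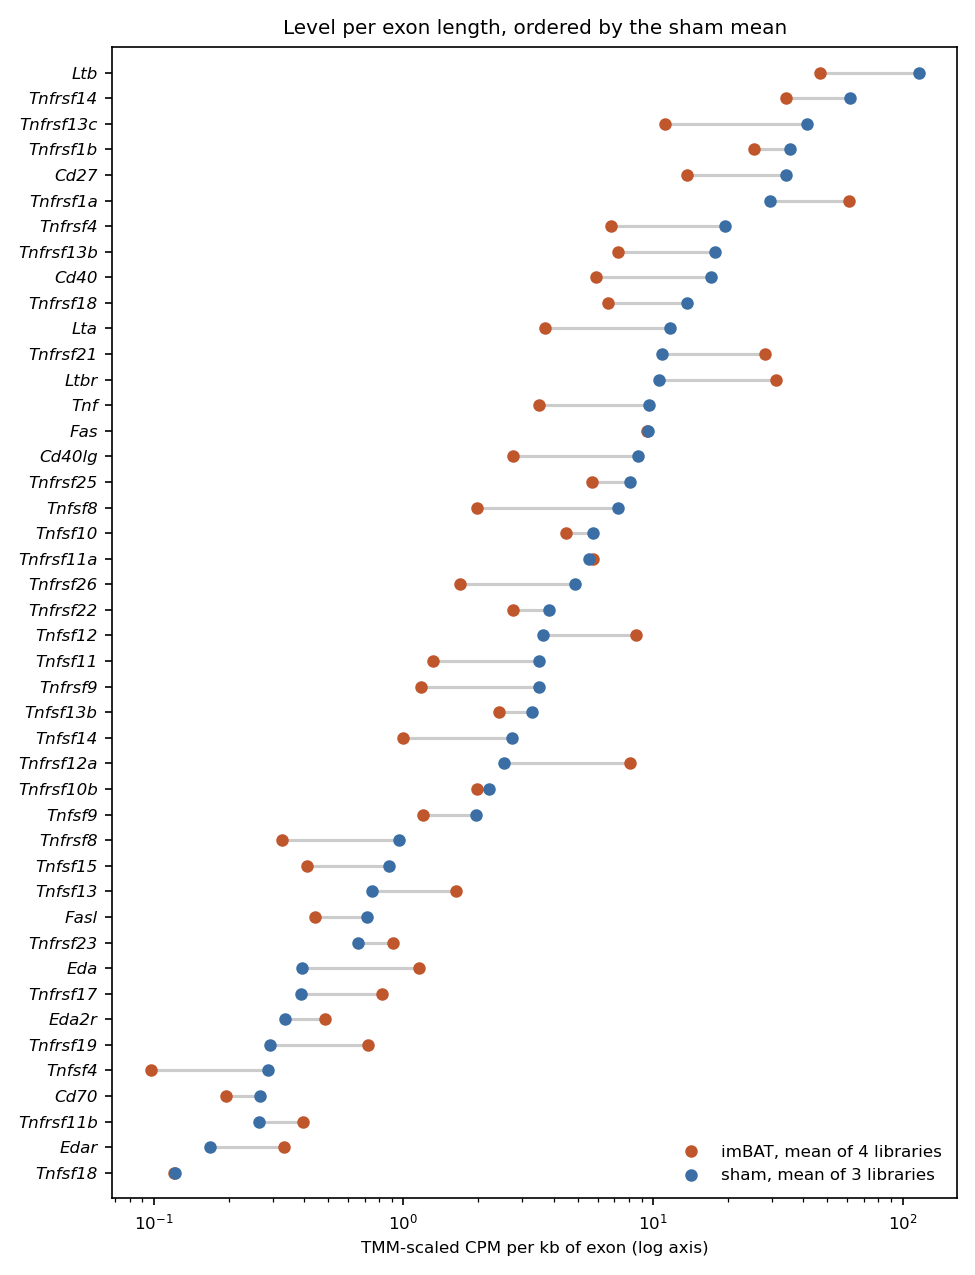
Mean TMM-scaled CPM per kb of exon (horizontal log axis) of the 44 members in imBAT and sham, ordered by the sham mean. The means run from Tnfsf4 (0.0972) to Tnfrsf1a (61.3) in imBAT and from Tnfsf18 (0.122) to Ltb (116) in sham.

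Members expressed mainly by lymphocytes were next set against the lymphocyte markers of the same library, as the log2 of the member's CPM over the summed CPM of the marker list. With 4 libraries against 3 the exact permutation test cannot give a two-sided p below 0.0571, so no difference here can pass the threshold. Relative to B cell markers, Tnfrsf13c differed by -0.16 between imBAT and sham (means of -4.84 ± 0.20 and -4.67 ± 0.24, SD, exact p = 0.457) and Cd40 by 0.23 (-4.99 ± 0.13 and -5.22 ± 0.16, exact p = 0.171), with overlapping groups. Tnfrsf13b was higher relative to B cell markers in every imBAT library than in any sham library (-4.93 ± 0.26 in imBAT, -5.43 ± 0.10 in sham, difference 0.50, exact p = 0.0571). Tnfrsf17, a plasma cell gene, differed by 3.21 on counts of 21 to 53 in imBAT and 4 to 22 in sham. Relative to T cell markers, Cd40lg (-0.05), Tnfrsf9 (-0.06) and Tnfrsf4 (0.13) differed by less than the SD of imBAT libraries. Tnfrsf18 and Cd27 were higher relative to T cell markers in all imBAT libraries, by 0.59 (-5.66 ± 0.51 in imBAT, -6.25 ± 0.10 in sham) and 0.28 (-4.05 ± 0.19 in imBAT, -4.33 ± 0.11 in sham), and Tnfsf8 was lower in all, by -0.31 (-6.16 ± 0.13 in imBAT, -5.85 ± 0.10 in sham), each with an exact p of 0.0571. For Tnfrsf18 and Cd27 the groups barely separated. Tnfrsf18 had -6.15 in both imBAT replicate 1 and sham replicate 2, and Cd27 had -4.22 in imBAT replicate 4 and -4.23 in sham replicate 3. Fasl differed by 0.83 with a wide spread (-9.34 ± 1.21 in imBAT, -10.16 ± 0.33 in sham, exact p = 0.343). Relative to the summed white adipocyte markers, the 8 members that rose were lower in imBAT, with differences of -0.94 (Tnfrsf12a, exact p = 0.171) to -1.54 (Tnfrsf1a, exact p = 0.0571), and only Tnfrsf12a and Tnfrsf21 overlapped between groups. That direction was set beforehand: the adipocyte sum rose 6.02-fold (ratio of group means), while Tnfrsf12a, with the largest rise of these members, rose 3.21-fold. The adipocyte ratios and their p-values therefore test nothing about these members.

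**Figure D5:**
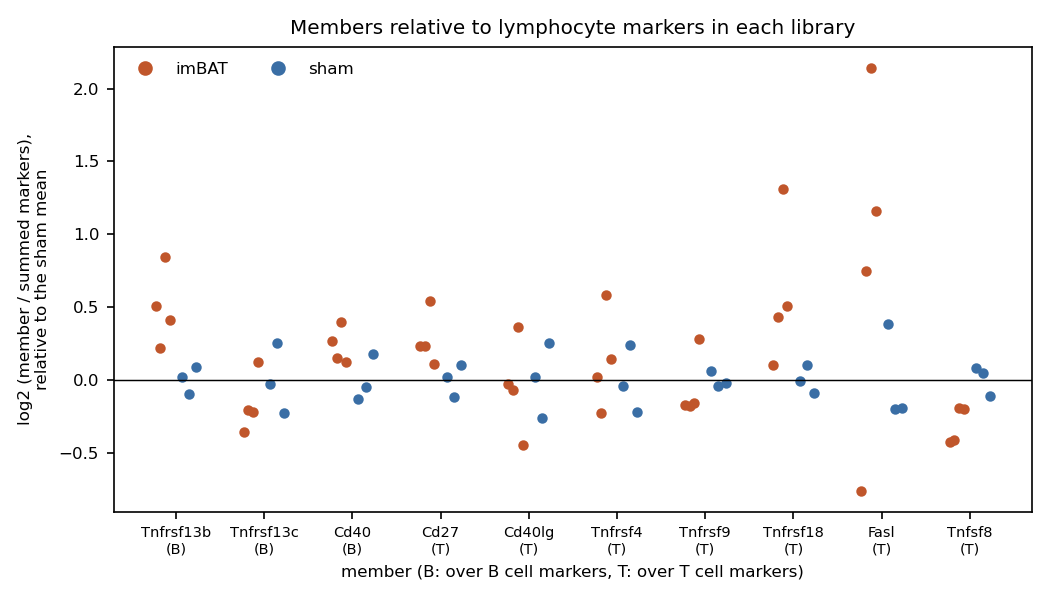
The log2 ratio of 10 members to the summed B cell (B) or T cell (T) markers in each library, imBAT left of sham, with the sham mean of each member set to 0 (vertical axis). The Tnfrsf18 points of imBAT lie at or above those of sham (mean difference 0.59), the lowest imBAT point being level with the highest sham point, and Fasl has the widest spread.

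Of 28 genes of proximal signalling, the adaptors, ubiquitin ligases and kinases at the receptor, 15 fell (53.6%, where 19.3% of all tested genes were lower) and 2 rose (7.14%, where 24.3% were higher), with a median log2 fold change of -0.40. With upper-quartile scaling 23 fell and 1 rose, a setting in which 8180 of all 26393 tested genes were lower and 4722 higher. The genes of the list with the smallest p were Tank, a TRAF-binding protein (-0.70 ± 0.08, 44.5 ± 1.05 CPM in imBAT and 72.2 ± 1.96 CPM in sham), Birc2, the ubiquitin ligase cIAP1 (-0.98 ± 0.14), Traf5 (-0.98 ± 0.14) and the deubiquitinase Cyld (-0.80 ± 0.12). Against the list, Mlkl, the executioner of necroptosis, rose by 1.30 ± 0.21 (14.2 ± 3.63 CPM in imBAT, 5.78 ± 0.508 CPM in sham) and Tab3, a partner of the kinase TAK1, by 0.52 ± 0.14, a call lost with upper-quartile scaling or without sham replicate 2. Of 15 NF-kB genes 8 fell (53.3%, against the same 19.3% of all tested genes) and none rose (median -0.47). Those that fell included Rel, the lymphocyte-rich subunit (-1.50 ± 0.21, 51.0 ± 12.6 CPM in imBAT, 145 ± 26.5 CPM in sham), Nfkbie (-1.18 ± 0.18), Map3k14, the kinase NIK (-0.91 ± 0.14), and Ikbkb (-0.86 ± 0.14). The T and B cell markers fell in the same libraries.

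Of 13 tested genes that TNF is known to induce, 8 rose (61.5%, where 24.3% of all tested genes were higher) and 3 fell (23.1%, where 19.3% were lower), with a median of 0.86, and 5 rose with upper-quartile scaling or without sham replicate 2. Those that rose included Sod2, the mitochondrial superoxide dismutase (1.34 ± 0.24, 136 ± 44.6 CPM in imBAT, 53.8 ± 5.93 CPM in sham), the chemokine Cxcl10 (1.49 ± 0.28), the gelatinase Mmp9 (2.76 ± 0.56) and Tnfaip6 (2.32 ± 0.47). The adhesion molecules Icam1 (-0.69 ± 0.15) and Vcam1 (-0.90 ± 0.25) and the T cell chemokine Ccl5 (-1.50 ± 0.36) fell, of which Ccl5 was not called with no filter on low counts. These genes have other inducers and several cell sources, and macrophage markers rose beside them. The list is not complete, since other genes that TNF can induce were counted under proximal signalling and NF-kB. Of those, Traf1 (-1.44 ± 0.27), Birc3 (-1.13 ± 0.19), Tnfaip3 (-0.94 ± 0.23), Nfkb2 (-0.64 ± 0.12) and Relb (-0.47 ± 0.11) fell. Nfkbia was not called (-0.52 ± 0.26, adjusted p = 0.138). The share that rose thus holds for the genes listed, not for TNF targets in general. Of 6 genes of ligand and receptor shedding 3 rose (50%, where 24.3% of all tested genes were higher). None fell, where 19.3% of all tested genes were lower, and the median was 0.22. Those that rose were Rhbdf1 (1.14 ± 0.16), which helps mature the TNF convertase, Sppl2b (0.42 ± 0.11), an intramembrane protease, and Adam10 (0.34 ± 0.12, adjusted p = 0.0492). Of these 3, Rhbdf1 alone was called with upper-quartile scaling and without sham replicate 2 or 3. The call of Adam10 was also lost with DESeq2, RLE scaling, no filter, the block on title numbers and without imBAT replicate 1, 2 or 4 or sham replicate 1. Adam17, the TNF convertase itself, had 100.3 ± 7.64 CPM in imBAT and 116 ± 2.26 CPM in sham and was not called (adjusted p = 0.0866), but was called lower with upper-quartile scaling, with limma voom and without imBAT replicate 3. With upper-quartile scaling 1 gene of this list was higher and 2 were lower, where 4722 of all 26393 tested genes were higher and 8180 lower. Of 3 family genes whose symbols fall outside the name rule, Tnfsfm13 rose (1.10 ± 0.26), the receptor Relt fell (-1.08 ± 0.22, 21.2 ± 6.06 CPM in imBAT, 44.9 ± 0.783 CPM in sham) and the nerve growth factor receptor Ngfr was not called (0.70 ± 0.32, adjusted p = 0.112), though it was without imBAT replicate 4.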

How the data were processed

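RNA sequencing of 4 imBAT and 3 sham libraries was used. Per the labels' protocols, STAR 2.7.9a aligned the reads against the primary assembly of Ensembl release 101. The authors deposited raw read counts per gene. Without stating their roles, the submitters' processing notes also list Subread, featureCounts 2.0.3, Salmon 1.5.2, limma and edgeR; strand setting and treatment of multiply mapped reads were not given in the sources used here. Of 55774 rows, 287 repeated a gene ID with identical counts and were dropped.

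Counts were fitted over the whole table with edgeR 4.0.16 (R 4.3.3): filterByExpr with a minimum count of 10, TMM, robust quasi-likelihood F test, group as the only term (5 residual degrees of freedom), Benjamini-Hochberg over 26393 genes, called under 0.05. The SE is the log2 fold change over the square root of F. Exon lengths and coordinates came from GENCODE M21 (GRCm38). Replicate numbers follow accession order and pair no samples. Members, lists and tests were chosen with earlier results of these data known. Values in each library were given for the 8 called members of at least 1 CPM with the largest change in each direction and for 20 members fixed by name; pathway lists are described by counts, medians, the 4 smallest p and genes that went against the list. Values in each library of Tnfrsf17, Fasl and other members outside this rule were added after they were seen. Other settings tried were scaling by RLE or by the upper quartile, omitting the filter, requiring 1 CPM in 3 libraries, DESeq2 1.42.0, limma 3.58.1 voom with quality weights, a block on title numbers, leaving out each library and an adjusted p under 0.10. The fits were tested on simulated counts. Within groups, no pair of libraries was alike within sampling noise (chi-square of 20.4 to 216 per degree of freedom over genes). Counts carry no molecular identifiers.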

Additional observations from a re-analysis of the deposited data

Results flagged for a closer look

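Over 44 members and 19 marker ratios, 1 of the 4 imBAT libraries lay far from its group in 3 members and 2 ratios, by Dixon's criterion at the 95% level, which chance meets in about 1 in 20 groups. Tnfsf11 had 1.40 CPM in imBAT replicate 3, while its group mates had 3.40 to 3.56 CPM. Tnfrsf4 had 5.51 CPM in the same library, while its group mates had 10.3 to 10.8 CPM, and the T cell marker sum was also lowest there. Tnfrsf10b had 12.9 CPM in imBAT replicate 2, while its group mates had 9.73 to 10.2 CPM. The log2 ratio of Tnfrsf9 to T cell markers was -7.10 in imBAT replicate 4 and -7.56 to -7.54 in its group mates. The log2 ratio of Tnfrsf1a to white adipocyte markers was -6.44 in imBAT replicate 2 and -7.47 to -7.35 in its group mates, and the adipocyte sum was lowest in that library.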

How the results depend on the processing

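Over all alternatives, 7 to 10 members were called higher and 19 to 25 lower, and over the fits that left out a library 7 to 9 higher and 19 to 23 lower. Of 32 called members, 7 that rose and 18 that fell were called in every alternative in which they were tested. The exceptions were Tnfsf13, Tnfsf13b, Tnfsf9, Tnfsf15, Tnfrsf22, Tnfrsf25 and Ltb. The 18 include Tnfsf4, which had at most 0.603 CPM in any library. It could not be tested with the filter of 1 CPM in 3 libraries, so its call was not checked there. Over all genes, 11491 were called, and 7519 without sham replicate 2. The sign turned only for members with small differences that were not called. The log2 fold change of Fas was 0.04 with voom, 0.12 with the replicate block and -0.12 to 0.12 with a library left out. That of Tnfrsf11a was -0.19 with upper-quartile scaling and -0.03 to 0.14 with a library left out, and that of Tnfsf18 was -0.53 to 0.29 with a library left out. Among the ratios to T cell markers, the mean of log2 CPM over the list gave 0.09 for Cd40lg and 0.12 for Tnfrsf9, and leaving out a library gave -0.19 to 0.08 for Cd40lg and -0.02 to 0.25 for Tnfrsf4; the cause was not tested. Libraries with the same title number did not deviate together (r of -0.01, 0.10 and 0.11 over genes for 3 pairs). With 3 pairs, these values cannot exclude that the title numbers link samples. The block on title numbers gave 8 members higher and 21 lower, with Tnfrsf22, Tnfsf13b and Tnfsf9 not called. Tnfrsf17, Tnfsf18 and Cd70, all under 1 CPM, rest on few counts and had the largest SEs, 0.55 to 0.64.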
